A study of Mus musculus with 2 samples.

Results

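The genes described here encode components of the extracellular matrix of the brain and a receptor for it. They are the chondroitin sulfate proteoglycans Cspg4 (NG2), Cspg5 (neuroglycan C) and Ptprz1 (RPTPzeta, whose secreted form is phosphacan), the lecticans Ncan (neurocan), Bcan (brevican), Vcan (versican) and Acan (aggrecan), the tenascins Tnc and Tnr, and Cd44, a cell surface receptor for hyaluronan. The list was given by symbol. All 10 were found among the 32285 genes of the deposited matrices, each as 1 row.

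Lecticans bind the long sugar hyaluronan at their amino-terminal end and tenascins at their carboxy-terminal end, and link proteins of the Hapln family hold the lectican and the hyaluronan together. The meshwork that results fills the space between brain cells, and in the mature brain a dense form of it, the perineuronal net, wraps some neurons. The chondroitin sulfate chains on these core proteins are known to limit the growth of axons, and NG2 is a classical surface marker of oligodendrocyte precursor cells (OPCs).

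The samples formed 1 wild-type group of 2 mouse libraries, replicate 1 and replicate 2, with no treatment or control arm. Cells were labelled in embryos at embryonic day 12 (E12), when neurons form. EdU, a thymidine analogue built into new DNA, was later detected in the dissociated cells. The pallium, the dorsal forebrain that includes the cerebral cortex, was taken at postnatal day 3 (P3), and tissue was pooled. Cells that excluded propidium iodide and lay in the brightest 10% for EdU were sorted and captured with the 10x Genomics 3' chemistry, which counts molecules by unique molecular identifiers (UMIs). Shares of cells are therefore shares of sorted cells. It is not stated that separate pools went into each library. The spread behind the p-values is the one between these libraries, in the main fits after a shift shared by all groups was removed. It was estimated with information shared across genes, and it may be technical.

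After barcodes with fewer than 500 genes or over 10% mitochondrial UMIs were removed, 11228 and 10965 cells were left, with medians of 7542.5 and 8523 UMIs. The libraries share 40 of the kept barcode sequences. Cells were gated on genes outside the list, with at least 2 UMIs of the gate genes and fewer than 2 of every other gate. The Pdgfra gate, for OPCs, took 3661 cells of replicate 1 and 3734 of replicate 2, and the Enpp6 gate, for newly formed oligodendrocytes, took 10 and 29. The Aqp4 gate, for astroglia, took 1480 and 1458 cells, the Neurod2/6 gate, for glutamatergic-lineage cells, 1016 and 1010, the Gad1/2 gate, for GABAergic cells, 977 and 1015, and the C1qa gate, for microglia, 131 and 145. Another 813 and 990 cells passed more than 1 gate, and 3103 and 2540 passed none. In each group the check list of its own cell type had a higher summed level than in any of the other 5 groups, in both libraries. Single markers of the Enpp6 cells are given with their results. The margin inside the Neurod2/6 cells was small. Their glutamatergic list was at 545 and 598 summed CPM, their astroglial list at 501 and 450 and their OPC list at 376 and 262. With 2 check-list genes required, 588 and 687 Neurod2/6 cells were left. The Neurod2/6 and Gad1/2 groups are called neuronal below by lineage, and both include dividing cells. Markers of dividing cells were highest in Gad1/2 cells, at 2740 and 2938 summed CPM, against 668 and 738 in Pdgfra cells. The 21 and 20 cells of a fibroblast gate (Col1a1, Col1a2, Dcn) also held mural and astroglial markers and are not used further.

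Levels are given as CPM, from UMIs summed over all cells of a group in a library and scaled by that group's total. Because the 3' chemistry counts molecules at one end and capture differs between genes, levels are compared for the same gene between groups and not between genes. Tests between groups used edgeR's quasi-likelihood test on the sums per library and group, with the library as a block and Benjamini-Hochberg adjustment over all genes tested. A gene was called at an adjusted p under 0.05. Microglia make little of most of these genes and served as the measure of free RNA: in C1qa cells 9 members stood at 1.71% (Cspg4) to 6.74% (Ncan) of their level over all cells, whereas Cd44 stood at 240.2%. The C1qa cells had medians of 11646 and 13931 UMIs, above the 8402 and 9241.5 of Pdgfra cells. Neurod2/6 cells had 6136 and 6975.5, and Gad1/2 cells 6355 and 6939. Free RNA may be a larger share of these shallower cells than of C1qa cells, which was not tested.

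The start regions of 4 members are shown for genes on either side of the glial pattern described next: Cspg4 and Tnr were higher in Pdgfra cells and Tnc and Ncan in Aqp4 cells. Cd44 lay further to the Aqp4 side than Ncan; its window is not shown and holds no TATAAA. They are the 250 bases before the RefSeq start site (GRCm38.p6, the mm10 assembly), read 5' to 3' on the gene's strand, and were chosen after the levels had been seen. Cspg4 lies on the forward strand of chromosome 9 (window 56864854 to 56865103), Tnr on the forward strand of chromosome 1 (159523519 to 159523768), Tnc on the reverse strand of chromosome 4 (64047016 to 64047265) and Ncan on the reverse strand of chromosome 8 (70120845 to 70121094). Capitals mark TATAAA or its reverse complement.
Cspg4: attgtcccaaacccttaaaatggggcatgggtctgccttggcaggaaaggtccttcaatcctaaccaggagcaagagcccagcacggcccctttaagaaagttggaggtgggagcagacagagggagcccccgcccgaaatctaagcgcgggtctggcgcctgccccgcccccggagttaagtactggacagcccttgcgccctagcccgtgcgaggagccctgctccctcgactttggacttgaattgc
Tnr: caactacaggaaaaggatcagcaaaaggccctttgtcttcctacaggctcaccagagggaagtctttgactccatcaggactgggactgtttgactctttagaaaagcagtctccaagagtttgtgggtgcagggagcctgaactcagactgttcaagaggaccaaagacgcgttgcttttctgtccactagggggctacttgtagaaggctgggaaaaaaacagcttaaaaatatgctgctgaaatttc
Tnc: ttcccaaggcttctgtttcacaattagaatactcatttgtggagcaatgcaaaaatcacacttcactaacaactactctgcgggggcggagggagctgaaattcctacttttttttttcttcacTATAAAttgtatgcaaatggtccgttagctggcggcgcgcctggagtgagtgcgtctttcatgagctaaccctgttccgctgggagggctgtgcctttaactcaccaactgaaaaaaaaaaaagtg
Ncan: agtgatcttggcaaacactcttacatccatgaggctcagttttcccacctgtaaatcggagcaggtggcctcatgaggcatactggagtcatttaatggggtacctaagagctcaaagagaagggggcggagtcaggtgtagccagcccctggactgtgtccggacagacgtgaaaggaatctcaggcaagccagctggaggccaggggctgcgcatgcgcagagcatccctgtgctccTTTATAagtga
The 3 motifs searched, on both strands and also chosen after the levels had been seen, were looked for in these 250 bases of the 9 members with a RefSeq entry. TATAAA was found in the windows of Tnc and of Ncan, and it is in 12.4% of 32851 promoters of the same length. Tnc has another annotated start site, whose window (64046937 to 64047186) overlaps the one shown and holds the same match. The SOX core AACAAT was found in none of the members' windows and is in 9.42% of all promoters. The palindromic NFI motif, TTGGC and GCCAA with 5 bases between them, was found in none and is in 0.0365%. These are matches of letters in a window and say nothing of binding.

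Of the gated groups, the glial ones held most of the family, and they divided it. Cspg4, Tnr and Acan were higher in the Pdgfra cells, and Tnc, Ncan and Cd44 were higher in the Aqp4 cells. Bcan and Ptprz1 were high in both and higher in Aqp4 cells, Cspg5 was high in both and higher in Pdgfra cells, and Vcan differed least between them. The Aqp4 gate did not take all such cells. Of the cells that passed no gate, 1600 and 1388 had at least 2 UMIs of Slc1a3, a gene of the astroglial check list. These held Cd44 at 191%, Tnc at 152%, Ncan at 113% and Ptprz1 at 109% of the level over all cells. The other members were at 11.3% (Tnr) to 81.2% (Bcan) there. All 10 members were called between Pdgfra and Aqp4 cells, 5 higher in each. This count stands against 68.4% of all 14755 genes tested that were called in the same comparison (34.8% higher and 33.6% lower in Pdgfra cells; without scaling factors 64.4% of the called genes were higher in place of 50.8%), so the number called is no mark of the family, and the sizes carry the description. Bulk sums such as these cannot tell fewer expressing cells from less RNA per cell, which is why shares of cells are given beside them.

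**Figure D1:**
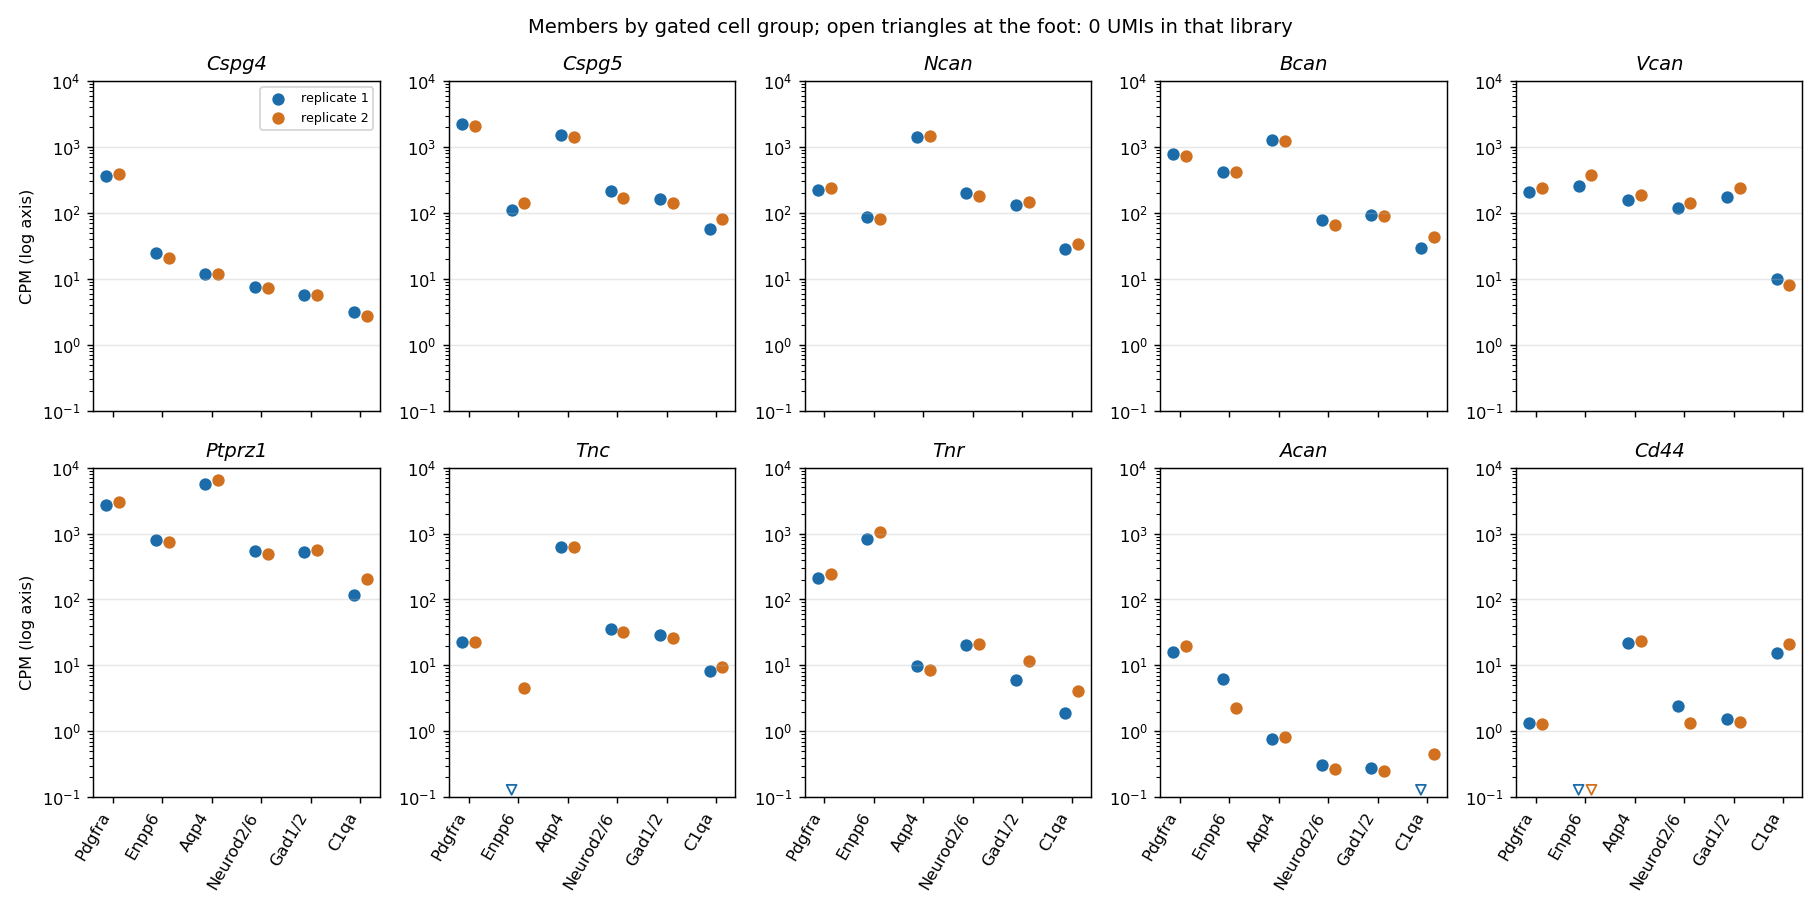
CPM of each member (log axis) in the 6 gated cell groups, 1 point per library, with an open triangle at the foot where a library held 0 UMIs. Cspg4 and Acan peak in Pdgfra cells, Tnr in Enpp6 cells, and Tnc, Ncan, Bcan and Ptprz1 in Aqp4 cells.

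Cspg4 encodes NG2, a membrane-spanning proteoglycan. Its level in Pdgfra cells was 364 CPM in replicate 1 and 383 CPM in replicate 2, against 11.92 and 12.04 CPM in Aqp4 cells. Enpp6 cells had 24.5 and 20.5 CPM, Neurod2/6 cells 7.51 and 7.21, Gad1/2 cells 5.66 and 5.72, and C1qa cells 3.12 and 2.74. From high to low the order was Pdgfra, Aqp4, Neurod2/6, Gad1/2 and C1qa cells, with no overlap of libraries between neighbours. Enpp6 cells lay between Pdgfra and Aqp4 cells. Their totals were only 163203 and 437973 UMIs, so few Cspg4 UMIs set this place. The log2 fold change from Aqp4 to Pdgfra cells was 4.79 ± 0.05 (SE; edgeR, adjusted p = 7.32e-38). After each cell was thinned to 2000 UMIs, 52.7% and 52.6% of the Pdgfra cells had a Cspg4 UMI, and without thinning 86.2% and 87.3% did. In the Neurod2/6 and Gad1/2 groups the thinned share was 0.768% to 1.76%, no clear step above the 0% and 1.39% of C1qa cells, and is read as background.

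Acan, the aggrecan core protein best known from cartilage and perineuronal nets, was found at a low level and mainly in the Pdgfra group. It had 16.16 and 20.02 CPM in Pdgfra cells and 0.759 and 0.830 CPM in Aqp4 cells, a log2 fold change of 4.33 ± 0.19 (SE; edgeR, adjusted p = 1.16e-20). Neurod2/6 and Gad1/2 cells each held 4 UMIs over both libraries, of the 1618 counted in all cells, while Pdgfra cells held 1252. The thinned share of Pdgfra cells with an Acan UMI was 3.62% and 4.56%, and the unthinned share was 11.3% and 14.4%.

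Tnr, tenascin-R, is a secreted tenascin known from oligodendrocytes and perineuronal nets. Pdgfra cells had 210 and 243 CPM, and the few Enpp6 cells had 821 and 1057 CPM. Neurod2/6 cells followed at 20.7 and 20.8 CPM. Aqp4 cells (9.94 and 8.51 CPM) and Gad1/2 cells (6.08 and 11.6 CPM) overlapped, and C1qa cells had 1.87 and 4.11 CPM. From Aqp4 to Pdgfra cells the log2 fold change was 4.46 ± 0.07 (SE; edgeR, adjusted p = 4.18e-33). Exons of Tnr overlap the antisense gene Gm38039, and the sources used here do not say whether strand was used in counting.

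Tnc, tenascin-C, the tenascin of embryonic tissue and of germinal zones, ran the other way. Aqp4 cells had 627 and 617 CPM, and the other gated groups lay far below: Neurod2/6 cells at 35.6 and 32.0 CPM, Gad1/2 cells at 28.7 and 25.6, Pdgfra cells at 22.4 in both libraries and C1qa cells at 8.12 and 9.59. Its log2 fold change from Aqp4 to Pdgfra cells was -4.96 ± 0.04 (SE; edgeR, adjusted p = 4.83e-42). A Tnc UMI was found in 62.5% and 61.8% of thinned Aqp4 cells and in 3.39% and 3.00% of thinned Pdgfra cells. The tenascins thus lay in different glia, Tnr in the Pdgfra and Enpp6 cells and Tnc in the Aqp4 cells. Exons of Tnc overlap 8030451A03Rik on the other strand.

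Ncan and Bcan, the nervous system lecticans, were both higher in astroglia, by different amounts. Ncan had 1418 and 1461 CPM in Aqp4 cells and 224 and 236 CPM in Pdgfra cells, a log2 fold change of -2.81 ± 0.05 (SE; edgeR, adjusted p = 1.70e-31). Its level in Pdgfra cells was close to that in Neurod2/6 cells (202 and 182 CPM), and Gad1/2 cells had 133 and 149. Bcan had 1296 and 1212 CPM in Aqp4 cells and 785 and 734 CPM in Pdgfra cells, a log2 fold change of -0.89 ± 0.05 (SE; edgeR, adjusted p = 2.00e-17). Bcan fell to 78.3 and 65.3 CPM in Neurod2/6 cells and 92.7 and 88.4 CPM in Gad1/2 cells. Thinned shares showed the same contrast: 88.0% and 88.2% of Aqp4 cells had an Ncan UMI against 36.9% and 37.3% of Pdgfra cells, while for Bcan the shares were 88.3% and 86.6% against 77.9% and 75.6%.

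Ptprz1 encodes a receptor tyrosine phosphatase that carries chondroitin sulfate and binds pleiotrophin. Its level was 5700 and 6453 CPM in Aqp4 cells and 2688 and 2970 CPM in Pdgfra cells, and almost every cell of both groups had a UMI even after thinning (99.1% and 99.4%, and 97.9% and 98.4%). The log2 fold change from Aqp4 to Pdgfra cells was -1.27 ± 0.06 (SE; edgeR, adjusted p = 1.62e-18). Gad1/2 cells (525 and 569 CPM) and Neurod2/6 cells (540 and 495 CPM) overlapped. Their thinned shares of 42.7% to 50.3% were above the 15.7% and 18.1% of the deeper C1qa cells. The part of free RNA in these shares was not tested.

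Cspg5, a membrane proteoglycan with an EGF-like domain, had 2202 and 2068 CPM in Pdgfra cells and 1496 and 1429 CPM in Aqp4 cells, a log2 fold change of 0.38 ± 0.05 (SE; edgeR, adjusted p = 2.65e-07). Neurod2/6 cells had 215 and 168 CPM, Gad1/2 cells 164 and 140, and Enpp6 cells 110 and 142, so the last pair overlapped.

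Vcan, a lectican of many tissues, was found in the glial groups and in both neuronal groups. Pdgfra cells had 209 and 242 CPM, Gad1/2 cells 177 and 236, Aqp4 cells 157 and 187, and Neurod2/6 cells 119 and 144. Pdgfra and Gad1/2 cells overlapped, as did Gad1/2 and Aqp4 cells. Replicate 2 was higher in each of these groups and in Enpp6 cells (257 and 379 CPM), though not in C1qa cells (10.0 and 8.22 CPM). Its log2 fold change from Aqp4 to Pdgfra cells was 0.22 ± 0.04 (SE; edgeR, adjusted p = 2.51e-06), and the call was lost without the library block (adjusted p = 0.120).

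Cd44 was low everywhere and followed a pattern of its own. Aqp4 cells had 21.6 and 23.8 CPM and C1qa cells 15.6 and 21.0 CPM, and their order depends on the scale: with the TMM factors of the tests Cd44 lay 4.43 (log2) above Pdgfra cells in C1qa cells and 4.28 in Aqp4 cells. Neurod2/6 cells had 2.45 and 1.36 CPM, Gad1/2 cells 1.56 and 1.37, and Pdgfra cells 1.34 and 1.28. The log2 fold change from Aqp4 to Pdgfra cells was -4.28 ± 0.14 (SE; edgeR, adjusted p = 3.82e-24). Among thinned cells, 3.85% and 5.12% of Aqp4 cells and 3.31% and 4.86% of C1qa cells had a UMI, against 0.117% and 0.198% of Pdgfra cells. The C1qa cells thus held Cd44 and cannot serve as its background. Whether microglia or other cells in that gate held it was not tested. The Pdgfra share lay in the range of the neuronal groups, which ran from 0% to 0.227%.

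**Figure D2:**
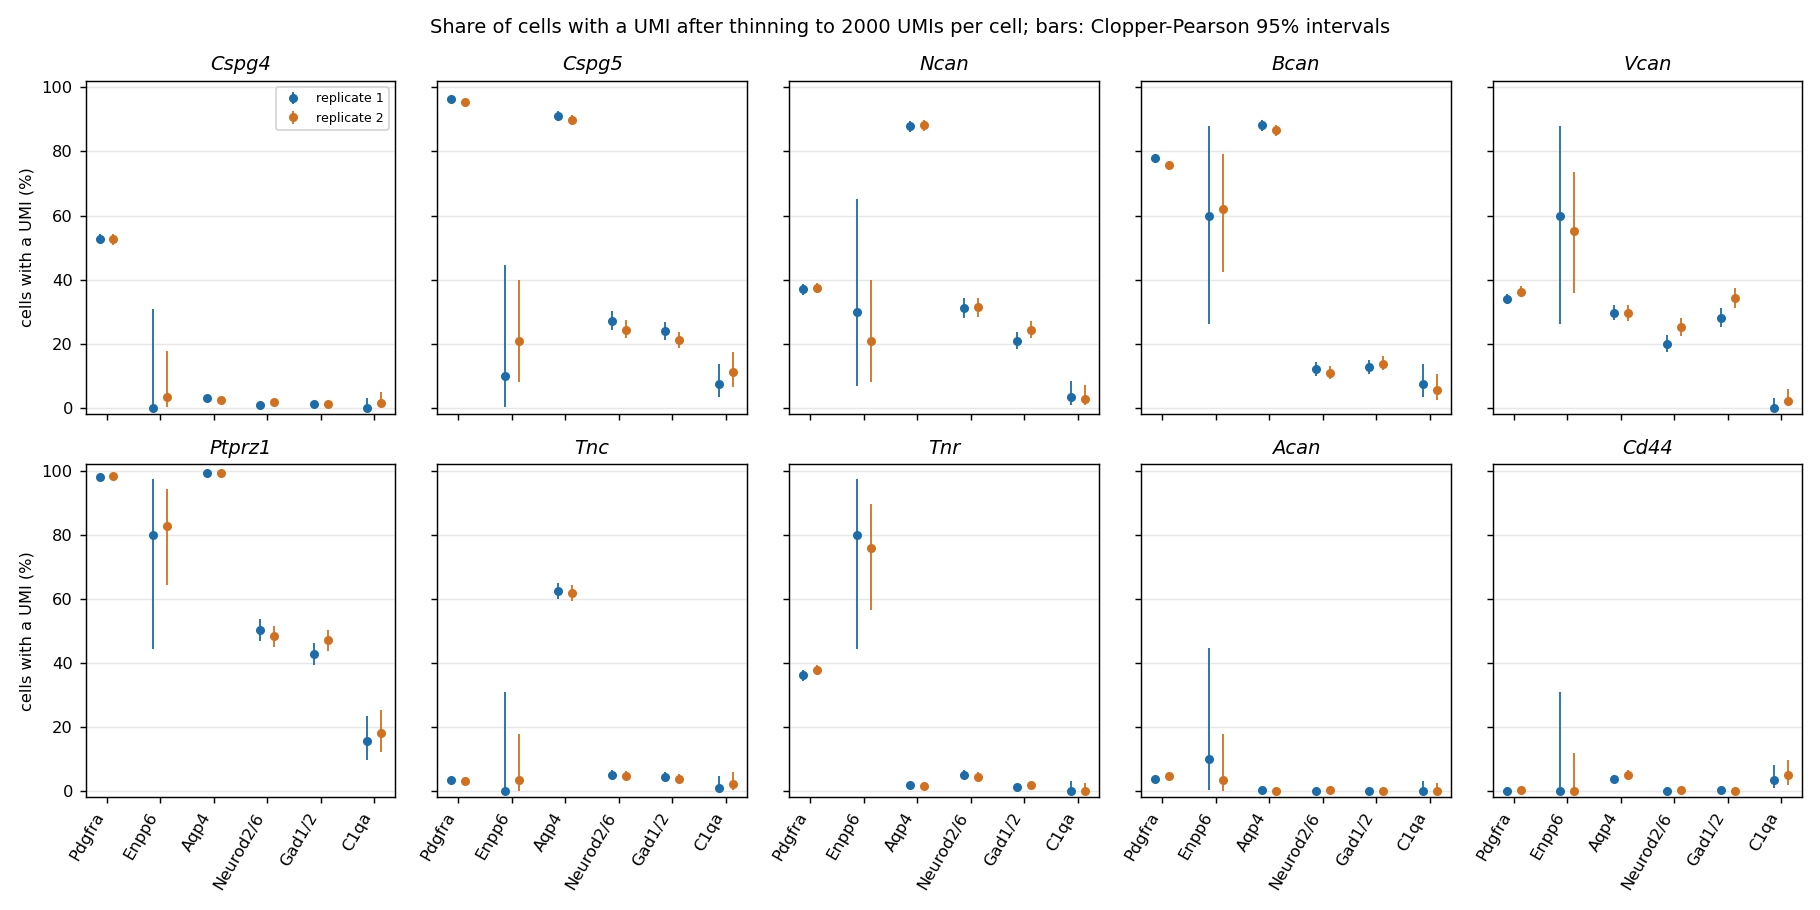
Share of cells with at least 1 UMI of each member after every cell was thinned to 2000 UMIs, by group and library, with Clopper-Pearson 95% intervals. Ptprz1 and Cspg5 were in over 89% of Pdgfra and Aqp4 cells, whereas Cspg4 and Tnr were found mainly in the oligodendrocyte lineage and Tnc in Aqp4 cells.

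Cells often held several members at once. At 2000 UMIs the median Pdgfra cell had UMIs of 4 members and the median Aqp4 cell of 5, in both libraries, while the median Neurod2/6 and Gad1/2 cell had 1 and the median C1qa cell 0. At least 3 members were detected in 93.5% and 93.1% of Pdgfra cells and in 96.7% and 97.2% of Aqp4 cells, against 18.9% and 17.5% of Neurod2/6 cells, 13.9% and 15.3% of Gad1/2 cells and 1.65% and 2.78% of C1qa cells.

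Between glia and neurons most members were higher in glia. In Pdgfra against Neurod2/6 cells 9 of 10 members were called, 8 higher and 1 lower, where 66.0% of all genes were called. The members' median was 2.88 on the log2 scale, against 0.04 over all genes tested. Cspg4 (5.62 ± 0.07), Acan (5.88 ± 0.30), Cspg5 (3.44 ± 0.06), Tnr (3.41 ± 0.08) and Bcan (3.36 ± 0.06) were the furthest apart in log2 fold change (SE). Tnc was lower in Pdgfra cells, at -0.63 ± 0.08, and Cd44 was not called (edgeR, adjusted p = 0.149). Ncan was higher by 0.22 ± 0.06 on the log2 scale, a call that was lost with DESeq2 (adjusted p = 0.0503) and with a gate of 1 UMI (adjusted p = 0.0659), and it was 0.0782 without replicate 2.

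In Aqp4 against Neurod2/6 cells all 10 members were called, 9 higher and Tnr lower, where 71.4% of all genes were called. The members' median was 3.05 and that of all genes 0.06 (log2). Tnc (4.33 ± 0.05), Bcan (4.26 ± 0.07), Cd44 (3.72 ± 0.21), Ptprz1 (3.68 ± 0.07), Cspg5 (3.07 ± 0.06) and Ncan (3.03 ± 0.06) had the greatest log2 fold changes (SE). Acan was called at 1.56 ± 0.66 from 22 UMIs in Aqp4 cells and 4 in Neurod2/6 cells, and its call was lost under 4 of the alternative settings. The comparisons share groups (Pdgfra, Aqp4 and Neurod2/6 sums enter several of them) and are therefore not independent of each other.

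**Figure D3:**
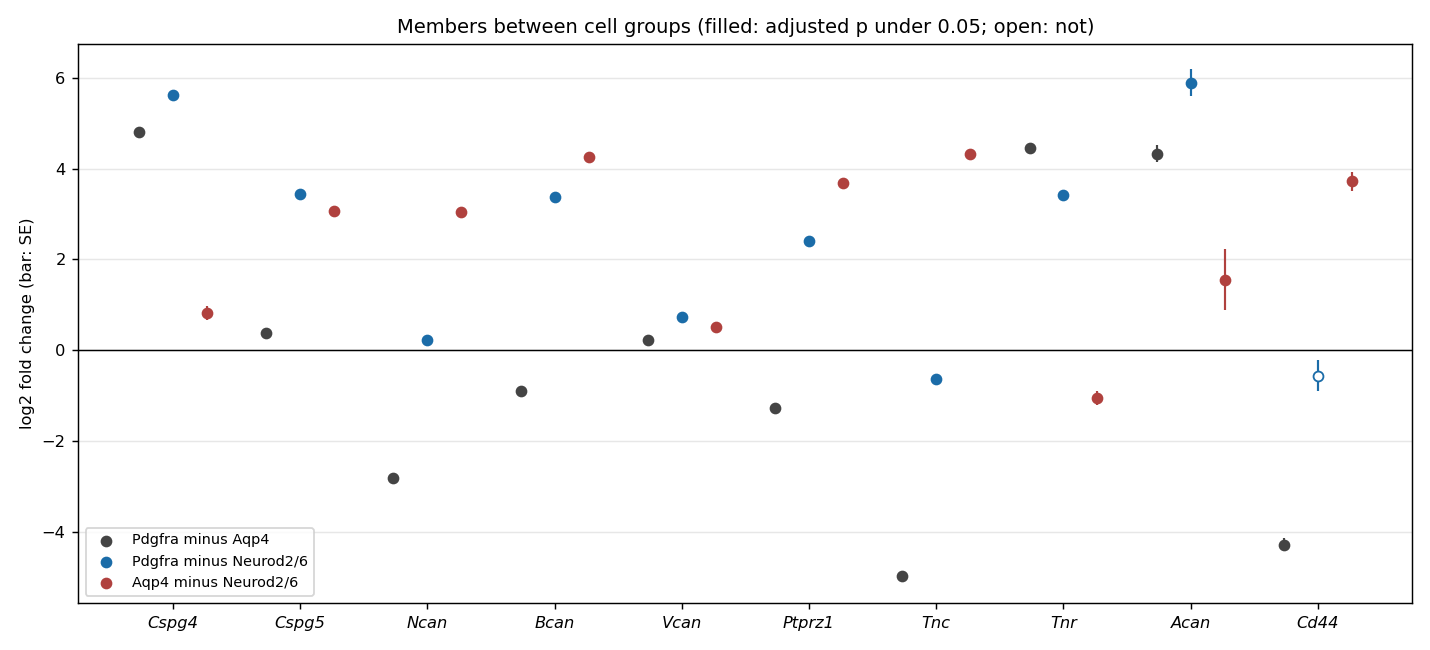
Log2 fold change of each member (SE bars) in Pdgfra minus Aqp4, Pdgfra minus Neurod2/6 and Aqp4 minus Neurod2/6 cells, filled where the adjusted p was under 0.05. Cspg4, Tnr and Acan lie above 4 and Tnc and Cd44 below -4 in the first comparison, and Cd44 in Pdgfra minus Neurod2/6 cells is the open point.

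The neuronal groups differed less. In Gad1/2 against Neurod2/6 cells 6 of 10 members were called, 3 higher and 3 lower, where 48.0% of all genes were called (50.6% of them higher, or 35.9% without scaling factors). Vcan was higher in Gad1/2 cells by 0.78 ± 0.05 (edgeR, adjusted p = 8.72e-15) and Bcan by 0.47 ± 0.08 (edgeR, adjusted p = 6.65e-06) on the log2 scale. Tnr was lower, at -1.08 ± 0.17 (edgeR, adjusted p = 2.59e-06), and so was Ncan, at -0.31 ± 0.06 (edgeR, adjusted p = 1.01e-04). Without replicate 1 these were -0.74 for Tnr and -0.19 for Ncan, and without replicate 2 they were -1.66 and -0.49. Cspg5 and Ptprz1 were called at -0.20 and 0.21, and both calls were lost under several settings; Ptprz1 was at 0.0639 without replicate 2. Cspg4, Tnc, Acan and Cd44 were not called, though Tnc was called lower under 4 other settings (adjusted p = 0.00731 to 0.0309). The check list of dividing cells was at 2740 and 2938 summed CPM in Gad1/2 cells against 342 and 302 in Neurod2/6 cells, and its part in these differences was not tested.

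Acan, Tnc and Cd44 had the fewest UMIs in Enpp6 cells. Of the other members, Cspg4, Cspg5 and Tnr differed most between the Enpp6 cells and the OPCs. The design called for a test only where a group had 20 cells in each library, which the 10 Enpp6 cells of replicate 1 did not reach under any set of gated cells tried, so the test below comes from a fit added after the data had been seen that kept these sums. In it 9 of 10 members were called, 2 higher and 7 lower in Enpp6 cells, where 16.5% of all genes were called. Tnr was higher by 2.07 ± 0.09 (edgeR, adjusted p = 1.99e-24) and Vcan by 0.54 ± 0.12 (edgeR, adjusted p = 7.70e-04) on the log2 scale. Cspg4 was lower by -4.14 ± 0.22, Cspg5 by -3.99 ± 0.14, Ptprz1 by -1.94 ± 0.11, Ncan by -1.49 ± 0.20 and Bcan by -0.86 ± 0.11 (log2, SE). Tnr was detected in 8 of 10 and 22 of 29 Enpp6 cells at 2000 UMIs, or 80.0% (Clopper-Pearson 95% interval 44.4 to 97.5) and 75.9% (56.5 to 89.7), against 36.1% and 37.7% of Pdgfra cells.

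Acan, Tnc and Cd44 rest on very few molecules there, and Cspg4 also on few. Acan and Tnc had 2 UMIs each in all Enpp6 cells, which is 18.3% (exact 95% counting interval 2.21 to 66.1) and 14.9% (1.80 to 53.8) of their level in Pdgfra cells. Cd44 had none, which allows up to 4.99 CPM and therefore says nothing beside the 1.31 CPM of Pdgfra cells. The oligodendrocyte marker Mbp was at 2635 and 2952 CPM in the Enpp6 cells, against 39.1 and 39.4 in Pdgfra cells. Bcas1, a marker of newly formed oligodendrocytes, was at 3260 and 3302 CPM, against 182 and 185. They also held Cajal-Retzius markers at 294 and 242 summed CPM, against 17.8 and 36.8 in Pdgfra cells, and GABAergic markers at 202 and 146, against 36.2 and 37.9. The part of either in the result was not tested.

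Of the cells that passed more than 1 gate, 9 and 8 passed both the Pdgfra and the Enpp6 gate, and the 7 and 5 of these that passed no other gate are described here. Tnr was at 741 and 984 CPM in them, near the level of Enpp6 cells, and Cspg4 at 302 and 129 CPM, between the levels of both groups. Their medians of 22149 and 20949 UMIs exceed those of either group, and doublets among them were not tested.

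C1qa cells were lower than Pdgfra cells in 9 members and higher in Cd44, so all 10 were called where 66.4% of all genes were (48.6% of them higher, or 26.9% without scaling factors). Cd44 was higher by 4.43 ± 0.28 (edgeR, adjusted p = 8.68e-16) on the log2 scale. The other differences ran from -0.71 ± 0.23 for Tnc, which lost its call under 3 settings, to -6.40 ± 0.16 for Cspg4. Acan had 1 UMI in all C1qa cells, or 1.45% (exact 95% counting interval 0.0366 to 8.08) of its level in Pdgfra cells.

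The link proteins and the sugar machinery were read from lists of genes around the members. The link protein genes lie next to lectican genes in the mouse genome (mm10): Hapln1 beside Vcan on chromosome 13 with 43659 bases between them, Hapln2 beside Bcan on chromosome 3 with 21519, Hapln3 beside Acan on chromosome 7 with 2, and Hapln4 beside Ncan on chromosome 8 with 2222, and no other protein-coding gene lies between any pair. Hapln1 was at 14.5 ± 1.4 CPM (SD, n = 2) in Aqp4 cells and 0.898 ± 0.077 in Pdgfra cells, whereas its neighbour Vcan was near level between them. Hapln4 was at 4.12 ± 0.83 and 1.39 ± 0.38 CPM, lower in Pdgfra cells as Ncan was (log2 fold change -1.71 ± 0.25, SE). Hapln3 was at 11.4 ± 1.8 and 7.93 ± 0.19 CPM, while its neighbour Acan was higher in Pdgfra cells. Hapln2 stayed at or under 0.154 CPM in both.

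Among 9 tested genes of hyaluronan and link proteins, 3 were higher and 5 lower in Pdgfra than in Aqp4 cells, where 34.8% of all genes were higher and 33.6% lower. The same shares stand behind the counts of the lists that follow. The median of the hyaluronan list was -0.46 (log2). Ugdh, which makes the UDP-glucuronate used for these sugars, was higher by 1.77 ± 0.04, and Cemip2, a cell surface hyaluronidase, by 1.01 ± 0.09 (log2, SE), while Hapln1 was lower by -4.17 ± 0.17. Has2, a hyaluronan synthase, was at 13.3 ± 0.22 CPM in Pdgfra and 10.6 ± 1.3 in Aqp4 cells (SD, n = 2), and was 3.47 ± 0.26 higher in Pdgfra than in Neurod2/6 cells (log2, SE).

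Of 19 tested genes of chondroitin sulfate synthesis, 8 were higher and 6 lower in Pdgfra than in Aqp4 cells, near the shares of all genes. The median of the list was -0.03 and that of all genes 0.01 (log2). Chst11, a chondroitin 4-O-sulfotransferase, was at 93.8 ± 3.1 CPM in Pdgfra and 19.0 ± 1.5 in Aqp4 cells (SD, n = 2; log2 fold change 2.14 ± 0.07, SE), and Ust, a uronyl 2-O-sulfotransferase, at 10.3 ± 1.1 and 2.15 ± 0.29. Csgalnact1, which starts the chondroitin chain, was at 8.62 ± 0.40 CPM in Pdgfra and 28.5 ± 1.2 in Aqp4 cells, and Chst7, a 6-O-sulfotransferase, at 12.6 ± 0.85 and 34.8 ± 2.2. Xylt1, the xylosyltransferase that starts the linker on the core protein, was at 352 ± 16 CPM in Pdgfra cells and 31.0 ± 5.0 in Neurod2/6 cells, a log2 fold change of 3.47 ± 0.06.

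Of 14 tested proteases and inhibitors, 6 were higher and 6 lower in Pdgfra than in Aqp4 cells, against 34.8% and 33.6% of all genes, and the median was -0.03 (log2). Mmp15, a membrane-type metalloproteinase, was higher at 257 ± 2.7 against 27.9 ± 0.02 CPM, and Timp3, an inhibitor of metalloproteinases, was lower at 58.4 ± 4.5 against 219 ± 15 CPM (SD, n = 2). Adamts4, a protease that cleaves lecticans, was at 30.6 ± 17.4 CPM in Enpp6 cells against 0.943 ± 0.052 in Pdgfra cells. The log2 fold change was 4.66 ± 0.67 in the added fit, from few Adamts4 UMIs in 10 and 29 Enpp6 cells. Adamts9 was at 26.4 ± 2.5 CPM in Pdgfra and 1.07 ± 0.22 in Neurod2/6 cells.

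Of 18 tested ligands and receptors of the members, 5 were higher and 10 lower in Pdgfra than in Aqp4 cells, against 34.8% and 33.6% of all genes, and the median was -0.39 (log2). Cntn1, a contactin that binds Ptprz1 and Tnr, was at 492 ± 41 against 20.9 ± 1.2 CPM (SD, n = 2; log2 fold change 4.39 ± 0.05, SE). Fbln2, a fibulin that binds lecticans, was lower in Pdgfra cells at 8.68 ± 0.49 against 136 ± 10.0 CPM, and so was Egfr at 25.4 ± 3.0 against 103 ± 5.8. The ligand of Ptprz1, Ptn (pleiotrophin), was at 10867 ± 22 CPM in Aqp4 cells, 3460 ± 73 in Pdgfra cells and 269 ± 68 in Enpp6 cells. Nfasc was higher in Enpp6 than in Pdgfra cells, at 723 ± 199 against 60.2 ± 5.7 CPM. Rtn4r, a receptor for chondroitin sulfate chains, was at 20.2 ± 0.07 CPM in Neurod2/6 cells and 4.05 ± 0.43 in Pdgfra cells.

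Of 16 tested glypicans, syndecans and small proteoglycans, 7 were higher and 7 lower in Pdgfra than in Aqp4 cells, against 34.8% and 33.6% of all genes, and the median was -0.15 (log2). Sdc3 was higher at 209 ± 5.8 against 75.8 ± 1.4 CPM, and Sdc4 was lower at 2.19 ± 0.09 against 53.8 ± 2.5 CPM (SD, n = 2). Gpc2 was highest in Neurod2/6 cells at 84.7 ± 1.2 CPM, against 14.5 ± 0.24 in Pdgfra and 13.4 ± 0.10 in Aqp4 cells.

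Of the 10 members, 7 were lower in dividing than in non-dividing Aqp4 cells, while in Pdgfra cells 6 were lower and Tnc was higher. Dividing cells had at least 2 UMIs over Mki67, Top2a, Ube2c, Cenpf, Birc5 and Tpx2, and non-dividing cells had none. They were 986 and 1098 of the Pdgfra cells and 309 and 329 of the Aqp4 cells, against 1860 and 1801, and 821 and 775. The rule took deeper cells: dividing Pdgfra cells had medians of 11080.5 and 11779 UMIs against 7571.5 and 8411, and dividing Aqp4 cells 12000 and 12744 against 7898 and 8856. The part of depth in the results was not tested.

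In dividing Aqp4 cells 7 of 10 members were lower and none higher, where 31.7% of all genes were called (19.0% lower; 39.9% of the called genes were higher, or 50.4% without scaling factors and 56.8% with Scrublet doublets removed). Bcan had 920 and 905 CPM in dividing against 1468 and 1371 CPM in non-dividing Aqp4 cells, a log2 fold change of -0.69 ± 0.04 (SE; edgeR, adjusted p = 1.93e-22). The log2 fold changes were -0.67 ± 0.04 for Cspg5, -0.65 ± 0.06 for Vcan, -0.64 ± 0.04 for Ncan, -0.51 ± 0.04 for Ptprz1 and -0.28 ± 0.04 for Tnc. Tnr was lower by -0.96 ± 0.23 from 49 UMIs in dividing and 143 in non-dividing cells, a call lost with a gate of 4 UMIs (adjusted p = 0.0674). Cspg4, Acan and Cd44 were not called.

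In dividing Pdgfra cells 7 of 10 members were called, where 31.8% of all genes were called (55.9% of them higher, or 41.3% with Scrublet doublets removed). Cspg4, Cspg5, Ncan, Bcan, Ptprz1 and Tnr were lower, by -0.10 ± 0.04 (Tnr) to -0.24 ± 0.04 (Bcan) on the log2 scale. None of these 6 was called without the library block, where Bcan had an adjusted p of 0.0516 and Cspg5 of 0.0829. At a mitochondrial limit of 5%, Cspg4, Ncan, Ptprz1 and Tnr also lost their calls (edgeR, adjusted p = 0.0523 to 0.656). Without replicate 1 Cspg4 was at -0.0862, Ncan at -0.00957, Ptprz1 at -0.0894 and Tnr at -0.0353, and without replicate 2 Ncan was at -0.25 and Tnr at -0.16. Tnc was higher, at 28.7 CPM in both libraries of dividing and 17.1 and 18.0 CPM in non-dividing Pdgfra cells (0.72 ± 0.09; edgeR, adjusted p = 3.68e-10). Gad1/2 cells had 28.7 and 25.6 CPM of Tnc, so the levels of dividing Pdgfra cells are near those of a neuronal group, and the call was lost with a gate of 1 UMI (adjusted p = 0.0718).

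The difference between both division effects was itself tested. It was called for 7 of 10 members, all more negative in Aqp4 cells, where 11.3% of all genes were called (8.85% in that direction). The log2 differences were 0.37 ± 0.05 for Ptprz1, 0.45 ± 0.06 for Cspg5, 0.45 ± 0.05 for Bcan, 0.50 ± 0.06 for Ncan, 0.61 ± 0.08 for Vcan, 0.86 ± 0.24 for Tnr and 1.01 ± 0.09 for Tnc. Over all genes the median difference was 0.09, in the same direction, and 78.7% of the called genes lay that way. That share was 58.3% without scaling factors and 35.0% with Scrublet doublets removed, while the 7 members kept their direction under both, and Tnr lost its call with the doublets removed (adjusted p = 0.0635).

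**Figure D4:**
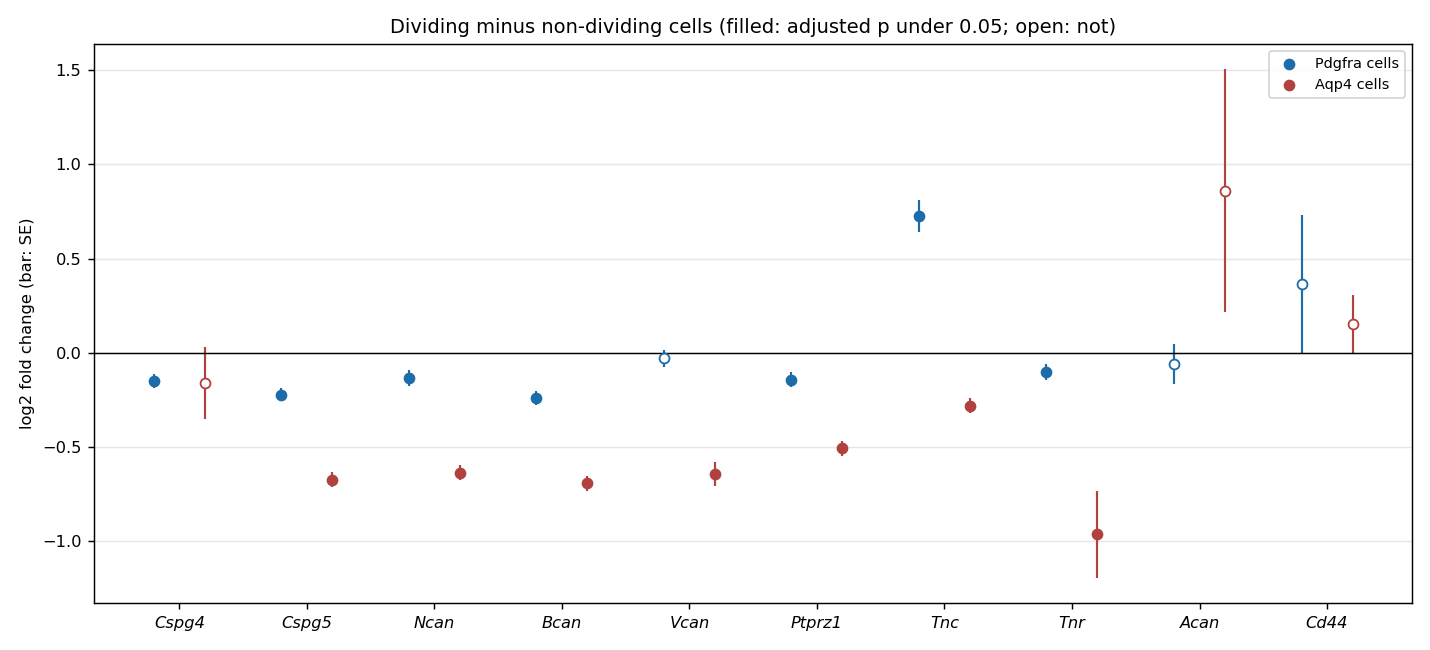
Log2 fold change of each member (SE bars) between dividing and non-dividing cells, for Pdgfra and for Aqp4 cells, filled where the adjusted p was under 0.05. The 7 called members of Aqp4 cells lie between -0.28 and -0.96, and Tnc in Pdgfra cells is the called point above 0.

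Each large group was also split by a gene outside the list, at least 2 UMIs against none. These 4 comparisons were added after the data had been seen, and all 4 are given. They were fitted under the main settings only, so how their calls depend on the processing was not tested. Gpr17+ cells had medians of 9124 and 10213 UMIs against 7983 and 8631, and Eomes+ cells 7911.5 and 7803.5 against 5960 and 6865, so depth differed here too. Gpr17 marks OPCs that are committing to oligodendrocytes. The Gpr17+ Pdgfra cells (1031 and 1242) differed from the Gpr17- cells (1605 and 1484) in 8 of 10 members, 7 higher and 1 lower, where 22.1% of all genes were called. Acan had 22.7 and 28.0 CPM against 11.3 and 10.9 CPM (log2 fold change 1.12 ± 0.11, SE; edgeR, adjusted p = 4.54e-10). Tnr was higher by 0.68 ± 0.05, Vcan by 0.51 ± 0.05, Cspg4 by 0.47 ± 0.05, Ptprz1 by 0.22 ± 0.05, Cspg5 by 0.21 ± 0.04 and Bcan by 0.14 ± 0.04, and Tnc was lower by -0.90 ± 0.10. Ncan and Cd44 were not called. Cspg4 was thus higher in Gpr17+ than in Gpr17- cells, while in Enpp6 cells it was lower than in Pdgfra cells. Tnr and Vcan were higher in both comparisons.

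Gfap marks a part of the astroglia, among them cells near the ventricle and the surface. The Gfap+ Aqp4 cells (376 and 412) differed from the Gfap- cells (873 and 826) in 6 of 10 members, 5 higher and 1 lower, where 23.1% of all genes were called. Vcan had 196 and 260 CPM against 136 and 153 CPM (0.63 ± 0.07), Tnc 762 and 778 against 537 and 525 (0.52 ± 0.05) and Ncan 1680 and 1760 against 1263 and 1264 (0.42 ± 0.04). Bcan was higher by 0.31 ± 0.04 and Cspg5 by 0.21 ± 0.04. Ptprz1 was lower in Gfap+ cells, at 4689 and 5387 against 6040 and 6919 CPM (-0.38 ± 0.05; edgeR, adjusted p = 1.24e-08). Cspg4, Tnr, Acan and Cd44 were not called.

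In both neuronal groups Vcan was higher in the positive cells, in which the other called members were lower. Eomes is a transcription factor of intermediate progenitors, and Sp8 one of olfactory bulb neuroblasts. The Eomes+ Neurod2/6 cells (88 and 134, against 844 and 796) differed in 6 of 10 members, where 19.4% of all genes were called: Vcan was higher by 0.68 ± 0.10 and Tnr (-2.42 ± 0.34), Cspg5 (-1.12 ± 0.09), Bcan (-0.66 ± 0.13), Ncan (-0.43 ± 0.09) and Ptprz1 (-0.42 ± 0.07) were lower. The Sp8+ Gad1/2 cells (419 and 509, against 339 and 332) differed in 7 of 10 members, where 25.3% of all genes were called: Vcan was higher by 0.78 ± 0.08, and Tnc (-1.31 ± 0.16), Cspg5 (-1.22 ± 0.07), Ptprz1 (-1.17 ± 0.06), Tnr (-1.05 ± 0.26), Bcan (-0.76 ± 0.09) and Ncan (-0.55 ± 0.07) were lower. The Sp8+ cells had medians of 7827 and 8349 UMIs and the Sp8- cells 4610 and 5261.5, and a part of free RNA in the higher levels of the shallower Sp8- cells was not tested.

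**Figure D5:**
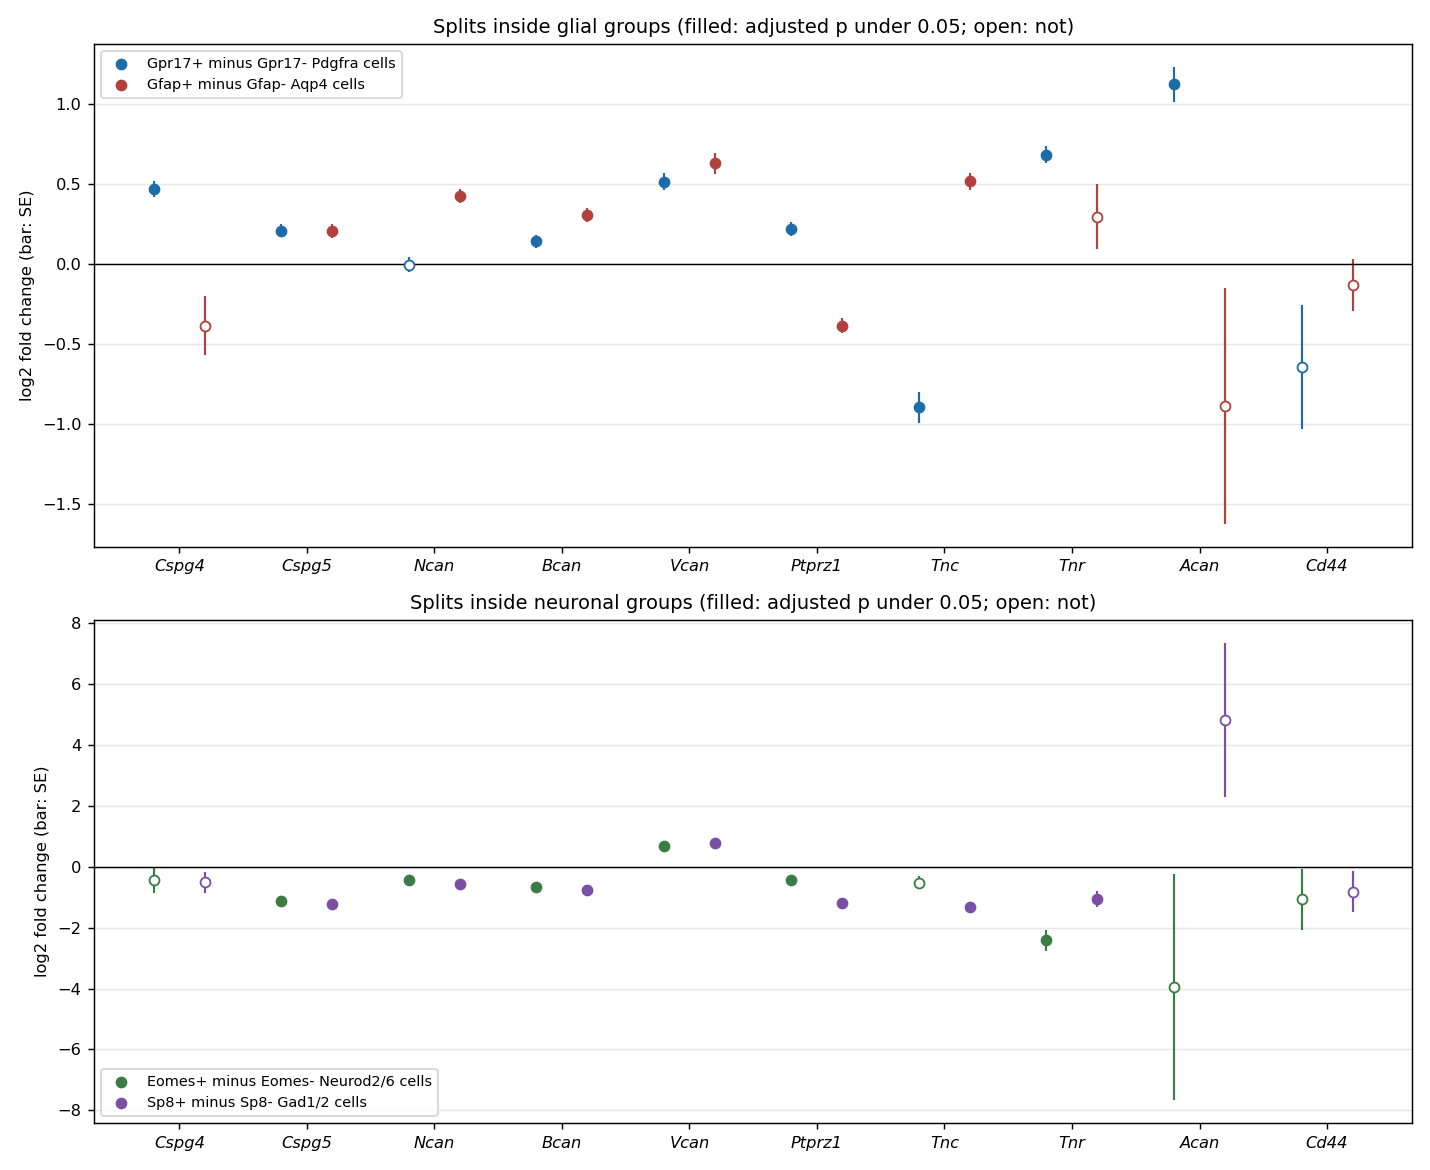
Log2 fold change of each member (SE bars) in the 4 splits, glial groups above and neuronal groups below, filled where the adjusted p was under 0.05. Vcan is higher in the positive cells of all 4 splits, and the wide open points of Acan rest on 0 to 4 UMIs a side over both libraries in the neuronal groups.

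The genes with patterns most like each member were named by the Pearson correlation of log2(CPM + 1) over the 10 sums of 5 groups in the first model, which share 2 libraries. For Cspg4 they were Irx2 (r = 0.994) and Lnx1 (0.992), for Cspg5 Timp4 (0.997) and Tril (0.995), for Ncan Rgma (0.994) and Cpe (0.993), and for Bcan Lama4 (0.996) and Idi1 (0.994). For Vcan they were Pcm1 (0.993) and Zcchc3 (0.991), for Ptprz1 Fat1 (0.997) and Cldnd1 (0.995), and for Tnc Tst (0.997) and Ccdc80 (0.995). For Tnr they were Pcdh15 (0.991) and Ak5 (0.990), for Acan Prkg2 (0.991) and Lrrn4 (0.988), and for Cd44 Ifitm3 (0.992) and Lasp1 (0.990). With so few groups, a high correlation is common and is given as a description.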

How the data were processed

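Raw UMI counts per gene and barcode were deposited by the authors as matrices of called cells for 2 libraries, made with Cell Ranger 6.0.2 per the file headers. Also named, with no role, are mm10, Seurat 4.1.0 and R 4.1.0, per the submitters' processing notes. The annotation release and the use of strand are not given in the sources used here. The members and gene lists were chosen with earlier results of these data known, and library totals were 97091962 and 108903409 UMIs.

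Barcodes with at least 500 genes and at most 10% mitochondrial UMIs were kept (81.0% and 75.6%). Scrublet (scanpy 1.11.5, expected rate 10%) marked 829 and 808 of them as doublets, which were removed in an alternative setting and kept otherwise. Cells were gated on marker genes with at least 2 UMIs, and counts were summed per library and group, since cells are not replicates. Testing used edgeR 4.0.16 under R 4.3.3 (quasi-likelihood test, TMM, filterByExpr, library as a block, Benjamini-Hochberg over all genes), and genes that define a gate were not counted as called. The first model had 10 sums and 4 residual degrees of freedom, the division model 8 and 3, and the model of the added splits 16 and 7. Groups with fewer than 20 cells in a library leave the fit, so Enpp6 cells were tested in an added fit of 12 sums and 5 residual degrees of freedom that keeps them. The block follows from the design, because each library contributes 1 sum to every group. Standard errors were derived from the F statistic (absolute log2 fold change over its root). DESeq2 1.42.0 was an alternative.

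Shares of cells with a UMI were taken after thinning each cell to 2000 UMIs, leaving out shallower cells, with exact Clopper-Pearson 95% intervals that cover counting error only. Of the Pdgfra cells 237 and 204 were left out, and of the Aqp4 cells 78 and 71. All members are named in every comparison. From each list the called genes with the largest fold changes were eligible, at most 2 higher and 2 lower per comparison, and link proteins, Has2 and Ptn were also named outside that rule as partners of the members, after their values had been seen. The comparisons by Gpr17, Gfap, Eomes and Sp8, the setting without scaling factors, the start regions shown and the motifs were added after the data had been seen. Of 14 hyaluronan genes, 13 matched a symbol in the files. Start regions came from RefSeq (GRCm38.p6) and positions from GENCODE. Python 3.11.15, numpy 2.4.6, scipy 1.17.1, pandas 2.3.3 and matplotlib 3.10.9 were used.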

Additional observations from a re-analysis of the deposited data

Results flagged for a closer look

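The effect of division differed between Pdgfra and Aqp4 cells for 7 members, by a test of the difference itself (edgeR interaction term, Benjamini-Hochberg over all genes). The log2 difference, Pdgfra minus Aqp4, was 0.45 for Cspg5 (adjusted p = 9.08e-09), 0.50 for Ncan (4.43e-09), 0.45 for Bcan (2.93e-09), 0.61 for Vcan (3.03e-08), 0.37 for Ptprz1 (5.37e-07), 1.01 for Tnc (3.88e-12) and 0.86 for Tnr (0.00848). Each was more negative in Aqp4 cells. Of all genes tested, 11.3% were called in the same test, 8.85% in that direction. Ptprz1 lost its call with no replicate block (adjusted p = 0.159). The dividing cells of both groups were deeper than the others and all genes leaned the same way by a median of 0.09, and the part of either was not tested. Tnr rests on 49 UMIs in dividing and 143 in non-dividing Aqp4 cells, and lost its call with no replicate block (adjusted p = 0.0839), with a gate of 1 UMI (0.0799) or of 4 UMIs (0.234) and with Scrublet doublets removed (0.0635).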

How the results depend on the processing

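Of the log2 fold changes of members recomputed under other settings, 858 kept their direction and side of the threshold or moved by less than the spread, 42 lost a call, 6 gained one and 28 changed sign; 76 more moved when a library was left out, which leaves no residual degrees of freedom and so gives values without a test and no counts of called genes. No sign change touched a called member. The splits by Gpr17, Gfap, Eomes and Sp8 were not recomputed under other settings. Each member had the same highest group under all 5 alternative sets of gated cells. The causes of the changes below were not tested. In dividing Pdgfra cells 4491 genes were called, against 1808 with DESeq2 and 2232 with no replicate block. In dividing Aqp4 cells the count was 4470, against 2706 with DESeq2. The difference between both division effects gave 1589 genes, against 580 with DESeq2, 365 with no replicate block and 900 with a gate of 4 UMIs; without the block Ptprz1 (adjusted p = 0.159) and Tnr (adjusted p = 0.0839) lost their calls there. Between Gad1/2 and Neurod2/6 cells, Cspg4 turned to 0.18 and Acan to -1.33 with a gate of 1 UMI, and Cd44 to 0.21 with a gate of 4 UMIs. Acan turned to -0.0336 with RLE size factors, to -0.0339 with DESeq2, to -0.12 without scaling factors, to -0.43 with Scrublet doublets removed and to -0.0379 with Enpp6 sums kept. At a mitochondrial limit of 5%, Vcan turned to 0.0292 and Acan to 0.0710 in dividing Pdgfra cells and Cspg4 to 0.0211 in dividing Aqp4 cells, where a gate of 4 UMIs gave 0.17. For the difference of the division effects, Cspg4 turned to -0.0447 with RLE size factors, -0.0598 without scaling factors, -0.0458 with DESeq2, -0.31 with a gate of 4 UMIs, -0.10 at a mitochondrial limit of 5% and -0.0477 with 2 check-list genes required, and Cd44 to -0.16 with Scrublet doublets removed. Leaving out a library in turn gave, for Gad1/2 minus Neurod2/6 cells, -0.0222 to -0.0104 for Acan and -0.55 to 0.11 for Cd44. In dividing Pdgfra cells it gave -0.11 to 0.0616 for Vcan, -0.27 to 0.12 for Acan and -0.32 to 1.09 for Cd44, in dividing Aqp4 cells -0.0535 to 0.41 for Cd44, and for the difference -0.0229 to 0.0393 for Cspg4 and -0.27 to 0.68 for Cd44. Without scaling factors the median of all genes was 0.18 for Pdgfra minus Aqp4, -0.12 for Gad1/2 minus Neurod2/6 and -0.73 for C1qa minus Pdgfra cells. Enpp6 cells stayed under 20 in replicate 1 under every set of gated cells tried, so the other settings gave no test for them. Depth limits Acan and Cd44 outside their main groups, where a handful of UMIs decides the value.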
